A study of Mus musculus with 24 samples.

Results

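Receptors of the TNF receptor superfamily were examined in mouse Th1 and Th2 cells treated with inhibitors of transcriptional elongation. The 8 receptor genes were chosen by name, as members of the family that T cells use: Tnfrsf1a, Tnfrsf1b, Tnfrsf4, Tnfrsf9, Tnfrsf18, Tnfrsf25, Cd27 and Fas. They were carried by 11 of the 55681 probes of the array, and by 8 of the 20028 genes that could be named. Expression was measured on 24 two-colour arrays, with 1 array per condition. Each array carried RNA of T helper cells labelled with Cy3 and RNA of naive CD4+CD62L+CD25-CD44lo T cells from lymph nodes and spleens, labelled with Cy5, as a reference. The dyes were never swapped.

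The T helper cells came from female C57BL/6 mice and had been differentiated in vitro. Th1 cells were on 14 arrays and Th2 cells on 10. They received DMSO, the vehicle, or JQ1 at 50 or 500 nM, or flavopiridol at 1 or 10 µM, with unstimulated and reactivated cells on 1 array each. JQ1 displaces BET bromodomain proteins from chromatin. Flavopiridol inhibits P-TEFb, the kinase that releases paused RNA polymerase II into elongation. Exposure was for 6 hr, with a further 24 hr time point in Th1 cells for DMSO and for 500 nM JQ1. For Th2 cells with DMSO the title names 24 hr but the source name 6 hr, so the time of this control is unclear throughout. How the cells of the arrays were reactivated was not given. No condition had a replicate. Tests therefore asked whether an effect recurred over matched conditions, and their error is the variation of that effect between conditions.

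Members of this family are receptors for ligands of the TNF superfamily, most of which are trimers on the surface of another cell. Tnfrsf1a, Tnfrsf25 and Fas carry a death domain in their cytoplasmic tail, through which adaptors such as Fadd and Tradd can couple the receptor to caspase-8. Tnfrsf1b, Tnfrsf4, Tnfrsf9, Tnfrsf18 and Cd27 bind TRAF proteins instead and feed into NF-kB, and in T cells they act as costimulatory receptors that promote survival and effector function. The arrays report mRNA of a whole culture, in which fewer cells of a type and less RNA per cell cannot be told apart.

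Of the 8 genes, 5 lie on chromosome 4, 2 on chromosome 6 and 1, Fas, on chromosome 19. Tnfrsf18 is the next protein-coding gene to Tnfrsf4 in the RefSeq annotation of GRCm38.p6. RefSeq promoter sequences were found for all 8 genes, with 2 starts each for Tnfrsf9 and Tnfrsf25, so that 10 windows of 250 bases before a start were read. They were searched on both strands for the NF-kB motif, by its usual consensus, for the AP-1 motif TGANTCA and for the T-box core TCACAC. Of all 32841 promoter windows of that length, 3.9% held the NF-kB motif, 6.75% the AP-1 motif and 12.3% the T-box core. Among the 10 receptor windows, the second Tnfrsf9 window held 2 overlapping NF-kB matches and 1 AP-1 match, and the Fas window held 1 AP-1 match. The other windows held none of these letters. The sequences below are given 5′ to 3′ on the strand of the gene, ending at the base before the start, for the window with matches to both motifs, for Fas, for the neighbours Tnfrsf4 and Tnfrsf18, which differed in their response to the drugs, and for the first start of Tnfrsf25, the receptor that fell most with JQ1. Capitals mark the motif matches and coordinates are those of GRCm38.p6.
Tnfrsf9 chr4:150927749-150927998 (+): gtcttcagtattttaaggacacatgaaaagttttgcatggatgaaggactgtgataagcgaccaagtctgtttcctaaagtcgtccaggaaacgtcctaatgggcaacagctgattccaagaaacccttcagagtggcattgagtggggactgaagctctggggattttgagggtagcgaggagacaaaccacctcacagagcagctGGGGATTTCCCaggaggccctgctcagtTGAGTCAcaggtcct
Fas chr19:34290409-34290658 (+): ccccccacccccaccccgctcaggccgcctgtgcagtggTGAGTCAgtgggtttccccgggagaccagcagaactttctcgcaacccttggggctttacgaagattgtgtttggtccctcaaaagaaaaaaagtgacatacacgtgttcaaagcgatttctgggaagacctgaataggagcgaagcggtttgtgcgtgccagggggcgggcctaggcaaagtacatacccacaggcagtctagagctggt
Tnfrsf4 chr4:156013445-156013694 (+): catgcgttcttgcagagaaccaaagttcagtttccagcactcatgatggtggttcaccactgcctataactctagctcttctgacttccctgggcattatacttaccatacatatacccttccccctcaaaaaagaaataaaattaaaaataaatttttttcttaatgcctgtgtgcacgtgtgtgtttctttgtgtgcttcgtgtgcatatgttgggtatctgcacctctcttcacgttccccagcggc
Tnfrsf18 chr4:156026072-156026321 (+): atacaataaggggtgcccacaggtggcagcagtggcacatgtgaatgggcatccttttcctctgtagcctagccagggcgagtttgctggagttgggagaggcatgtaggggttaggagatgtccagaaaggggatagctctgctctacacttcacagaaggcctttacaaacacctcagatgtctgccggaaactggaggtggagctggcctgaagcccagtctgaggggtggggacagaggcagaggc
Tnfrsf25 chr4:152115684-152115933 (+): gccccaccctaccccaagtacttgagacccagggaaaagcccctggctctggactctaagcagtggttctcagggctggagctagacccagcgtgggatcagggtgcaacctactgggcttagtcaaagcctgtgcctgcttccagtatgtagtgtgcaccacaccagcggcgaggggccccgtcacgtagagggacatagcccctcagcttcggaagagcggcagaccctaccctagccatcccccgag

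The arrays were first checked for the labelled cells. The T cell genes Cd3e, Cd3g, Cd4 and Lck were well above background on all 24 arrays. On the 16 arrays without flavopiridol, Tbx21, which encodes T-bet, had a log2 ratio to naive of 5.13 to 6.80 in Th1 cells, while Gata3, its Th2 counterpart, was at 1.59 to 3.06 in Th2 cells against -1.004 to 0.55 in Th1 cells. The reactivated Th2 DMSO array also had Tbx21 at 4.64 and Ifng at 6.20, and reactivated Th1 DMSO arrays had Il4 at 3.07 and 4.49. All 4 B cell markers of the list were on the array, with 3 or 4 of them well above background on each DMSO array, and their summed log2 ratio was 9.74 to 10.02 on the Th2 DMSO arrays against 3.65 to 4.63 on the Th1 DMSO arrays. Of 3 NK cell markers, Klrb1c was well above background in the sample channel of no array, Ncr1 of 1 and Klrd1 of 16. Of the 4 myeloid markers on the array, Lyz2 was above background on none, Adgre1 on 6 and Csf1r and Itgam on all 24, and of the CD8 T cell markers Cd8a was on 13 and Cd8b1 on 21. Of the 3 dendritic cell markers, Itgax was above background on 9 arrays, Flt3 on 15 and Zbtb46 on 12. Probes well above background made up 35.5% to 41.5% of the sample channel with flavopiridol and 43.8% to 52.0% elsewhere.

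Levels are given as the log2 ratio of a T helper sample to the naive reference, so that 1 unit is a 2-fold difference. With a single orientation of the dyes, the ratio to naive is a description and was not tested. Among the 16 arrays without flavopiridol, Tnfrsf4, encoding OX40, stood highest, from 1.62 to 4.76 with a median of 3.92. Tnfrsf18, encoding GITR, ranged from -0.98 to 2.50 with a median of 0.94, and Tnfrsf1b, encoding the second TNF receptor, from -0.21 to 1.88 with a median of 0.90. Fas ranged from -1.23 to 1.46 with a median of 0.25. These 4 receptors were thus mostly above the naive cells.

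The other 4 were mostly below the naive cells. Tnfrsf1a, encoding the first TNF receptor, ranged from -2.95 to -0.50 with a median of -1.301. Tnfrsf25, encoding the death receptor for the ligand Tnfsf15, ranged from -4.58 to -0.70 with a median of -2.63. Cd27 ranged from -3.03 to -0.78 with a median of -2.18. By their brightest probes these 3 receptors were below naive on all 24 arrays, flavopiridol included. The dimmer Tnfrsf1a probe was below naive on 23 arrays and at 0.05 on the unstimulated 24 hr Th1 DMSO array. Tnfrsf9, encoding CD137, ranged from -0.88 to 0.22 by its brighter probe, but a second probe of the gene was above naive on all 24 arrays, from 0.37 to 4.17, and is described further down.

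**Figure D1:**
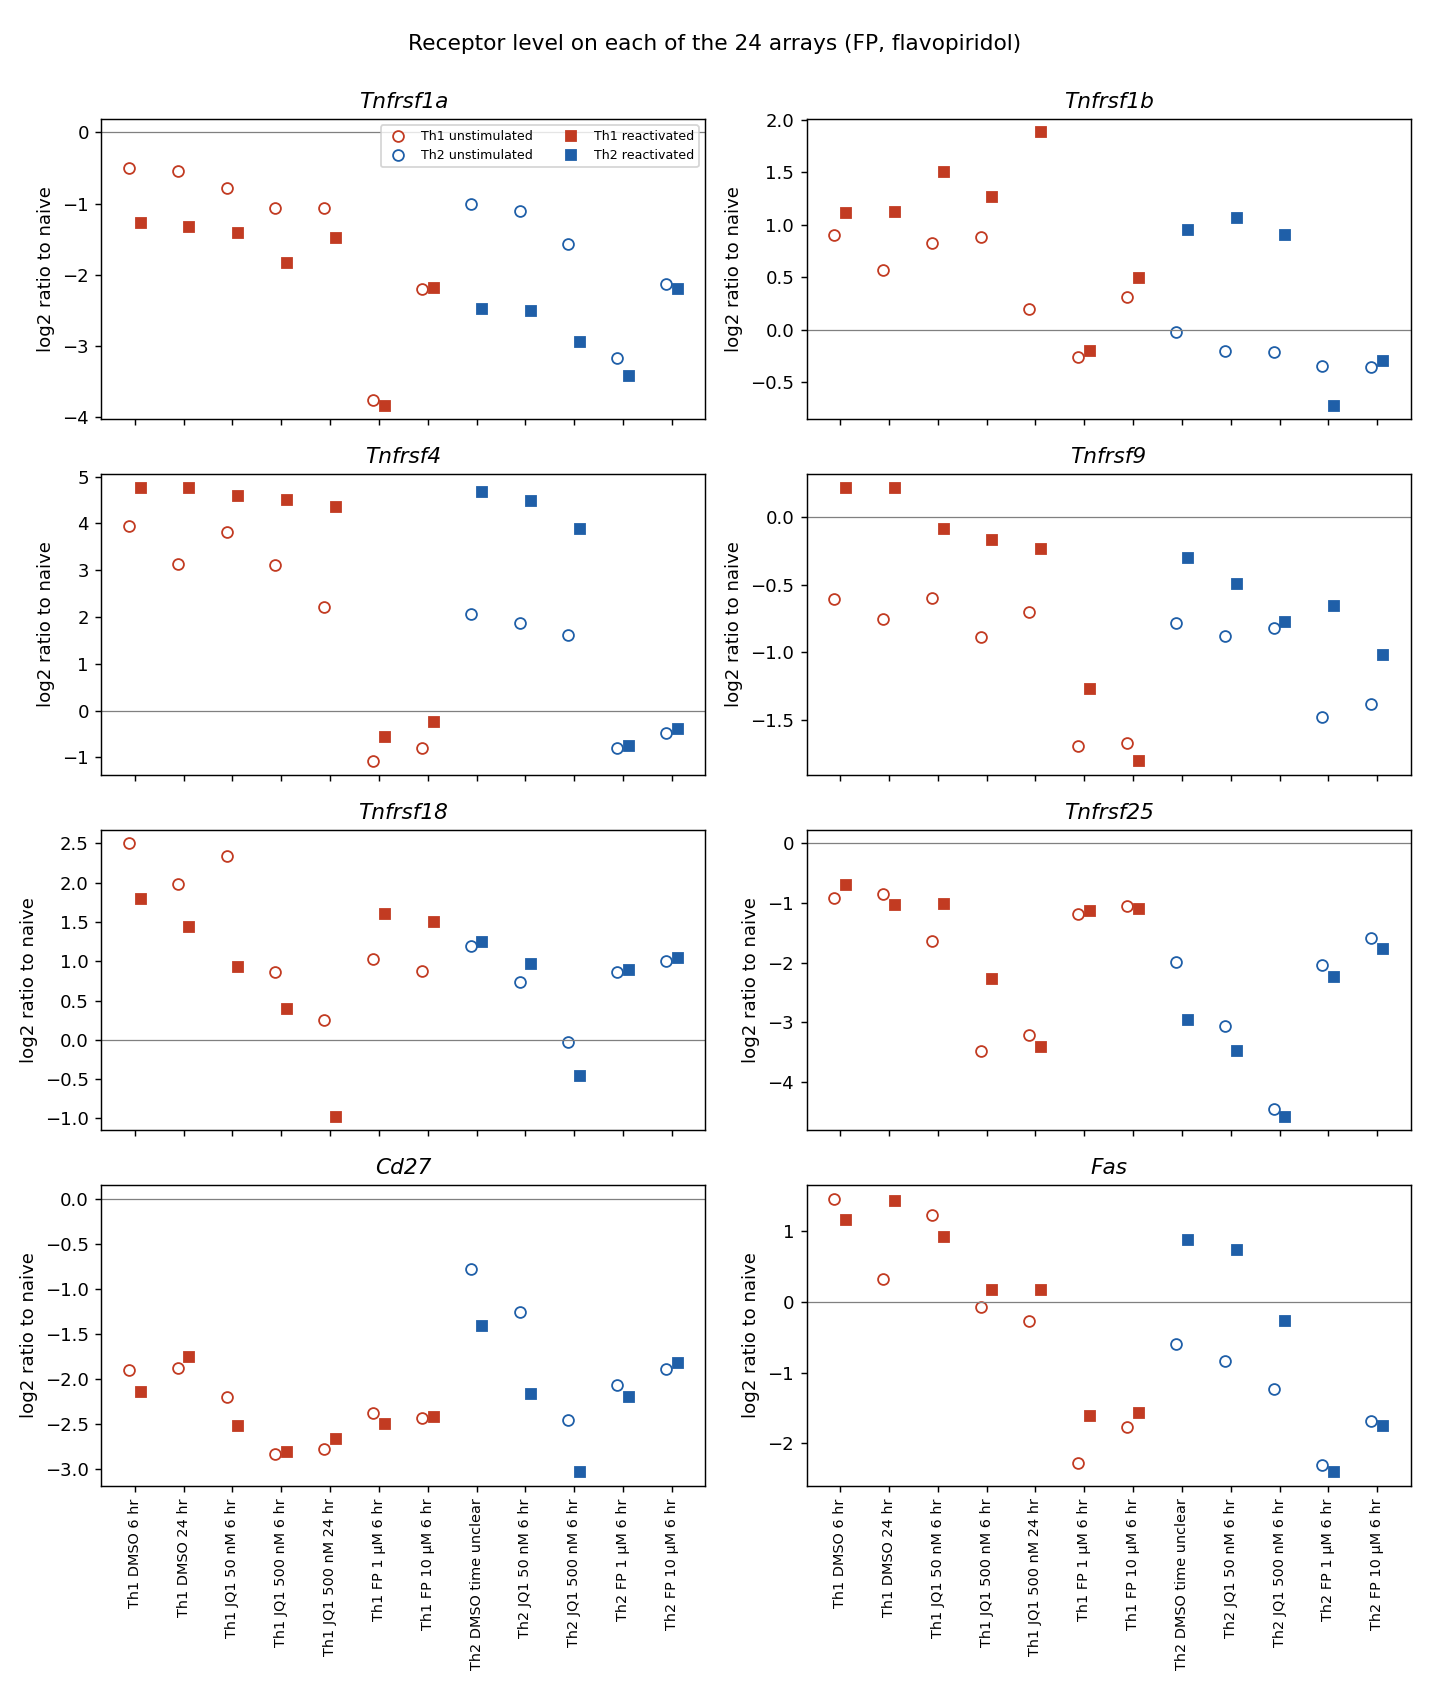
Log2 ratio to naive of the 8 receptors (vertical axes, different ranges) on each of the 24 arrays, by cell type, treatment and time (horizontal axes). Open circles are unstimulated and filled squares reactivated cells, red for Th1 and blue for Th2, and each point is 1 array. Tnfrsf4 and Fas were lowest on the 8 flavopiridol arrays, while Tnfrsf25 was lowest with 500 nM JQ1, at -4.58 and -4.45 in Th2 cells.

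Markers of regulatory T cells, which carry much Tnfrsf4 and Tnfrsf18, were also read. Foxp3, the defining gene, was well above background in the sample channel of 17 arrays, and its log2 ratio was -0.77 to -0.23 on the 16 arrays without flavopiridol and -0.08 to 0.56 on the 8 with it. Ikzf2 was measurable in the sample channel of 13 arrays, Ctla4 of 23 and Il2ra of 24, and the last pair are also expressed by activated T cells. The summed log2 ratio of these 4 genes was 5.22 to 10.29 on the DMSO arrays, 3.94 to 9.68 with JQ1 and 7.80 to 9.90 with flavopiridol. Their part in the receptor values was not tested.

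Reactivation of cells with DMSO was followed by higher Tnfrsf4, Tnfrsf9 and Tnfrsf1b and by lower Tnfrsf1a. This comparison asked how the receptors respond to a renewed stimulus in cells without drug, over 3 pairs of arrays that each share a slide. With limma's moderated test and Benjamini-Hochberg adjustment over all 12530 genes, 3 of the 8 receptors rose and 1 fell at an adjusted p below 0.05. Of all genes tested, 21.9% rose and 29.1% fell in the same comparison, so the receptors' share was close to this background. The median difference was 0.16 over the 8 receptors and -0.05 over all genes.

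Tnfrsf4, the costimulatory receptor for Tnfsf4, was at 3.95 in unstimulated and 4.76 in reactivated Th1 cells at 6 hr. At 24 hr it was at 3.14 and 4.76, and in Th2 cells at 2.06 and 4.66. All 3 reactivated arrays lay above all 3 unstimulated ones. The mean difference was 1.68 ± 0.32 (log2, SE, 3 pairs), a 3.20-fold rise with an adjusted p of 0.00555 by limma. The reactivated values were close together, at 4.66 to 4.76, while the unstimulated values ranged from 2.06 to 3.95. The reference channel of this probe was not constant: normalized Cy5 was 11.58 to 12.09 on the unstimulated and 12.67 to 12.92 on the reactivated DMSO arrays. In the sample channel alone, the pairs differed by 1.46 to 3.70, against 0.81 to 2.60 for the ratio.

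Tnfrsf1a, the receptor for soluble TNF, went the other way. Its unstimulated and reactivated values were -0.50 and -1.28 in Th1 cells at 6 hr, -0.54 and -1.33 at 24 hr, and -1.01 and -2.48 in Th2 cells. The groups did not overlap, and the fall was 1.01 ± 0.18 (log2, SE, 3 pairs), with an adjusted p of 0.00408 by limma. Its dimmer probe gave -0.65, with an adjusted p of 0.01. Tnfrsf1b, which binds the same ligand, was at 0.90 and 1.12 in Th1 cells at 6 hr, 0.57 and 1.12 at 24 hr, and -0.02 and 0.96 in Th2 cells. It rose by 0.58 ± 0.17 with an adjusted p of 0.0295 by limma, a call that was lost when any array of the 24 hr pair (0.60) or of the Th2 pair (0.39) was left out, with adjusted p of 0.0939 to 0.0958. The 2 receptors for TNF thus moved in opposite directions in each of the 3 pairs.

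Tnfrsf9 rose by 0.76 ± 0.14 (log2, SE, 3 pairs) by its brighter probe, from -0.61 to 0.22 and from -0.75 to 0.21 in Th1 cells and from -0.78 to -0.30 in Th2 cells, with an adjusted p of 0.00578 by limma. Fas did not pass, at 0.75 ± 0.33 with an adjusted p of 0.101. Its pairs disagreed in sign, with -0.31 in Th1 cells at 6 hr against 1.09 in Th1 cells at 24 hr and 1.47 in Th2 cells. Without the 6 hr pair of arrays Fas was at 1.28, with adjusted p of 0.00397 and 0.0042. Tnfrsf18 was at -0.41 ± 0.18 with an adjusted p of 0.1, and at -0.63 with adjusted p of 0.0144 and 0.0146 without either Th2 array. Tnfrsf25, with -0.32 ± 0.23 and an adjusted p of 0.295, and Cd27, with -0.25 ± 0.17 and an adjusted p of 0.261, also did not pass. Tnfrsf25 differed between the pairs, at 0.21 and -0.19 in Th1 cells and -0.98 in Th2 cells.

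Markers of other cells moved with reactivation as well. The summed log2 ratio of the 3 dendritic cell markers, Itgax, Flt3 and Zbtb46, was higher in 3 of 3 pairs, going from 0.92 to 1.76, from 0.15 to 1.71 and from 0.31 to 2.36. Those of the B, CD8, NK and regulatory T cell markers were lower in 3 of 3 pairs, the last going from 10.29 to 8.96, from 7.77 to 6.46 and from 6.42 to 5.22. Among the regulatory T cell genes, Ikzf2 and Ctla4 were lower and Il2ra higher in each pair. Foxp3 went both ways, from -0.67 to -0.58, from -0.39 to -0.47 and from -0.60 to -0.77. Their part in the receptor values was not tested.

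**Figure D2:**
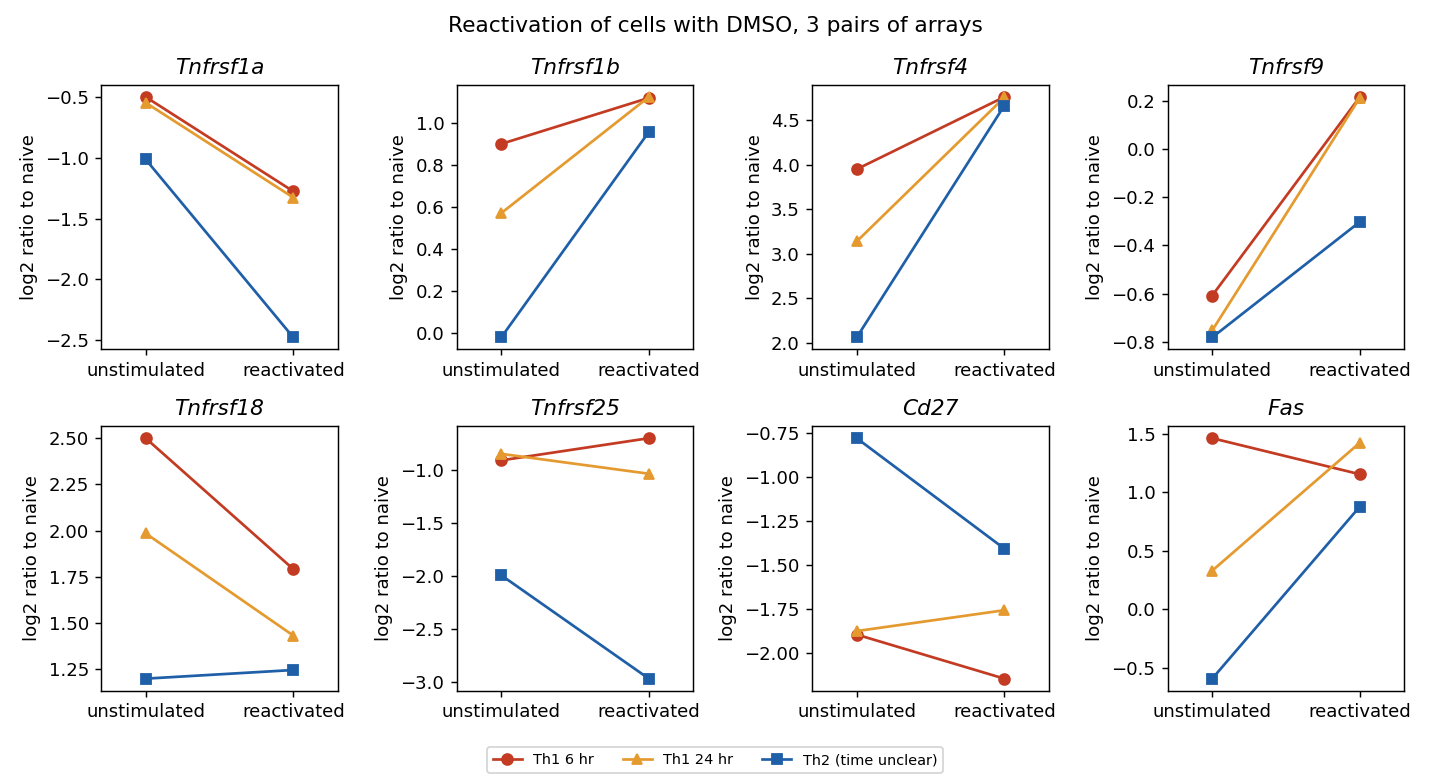
Log2 ratio to naive (vertical axes, different ranges) of the 8 receptors in unstimulated and reactivated cells with DMSO, with a line for each of the 3 pairs of arrays. All 3 lines rise for Tnfrsf4, Tnfrsf1b and Tnfrsf9 and fall for Tnfrsf1a, and they differ in direction for the other 4 receptors.

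JQ1 at 500 nM lowered 7 of the 8 receptors by their brightest probes and raised none, with Tnfrsf25 falling most, followed by Tnfrsf18, Cd27 and Fas. The comparison asked what displacement of BET proteins does to each transcript, over 4 contexts, Th1 and Th2 cells that were unstimulated or reactivated. Of all 12911 genes tested, 29.8% fell at an adjusted p below 0.05 by limma, against 7 of 8 receptors. The median difference was -0.83 over the receptors and -0.07 over all genes. The receptors' own values follow.

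Tnfrsf25 was at -0.91 in unstimulated Th1 cells with DMSO and at -3.48 with 500 nM JQ1. In reactivated Th1 cells it was at -0.70 and -2.28, in unstimulated Th2 cells at -1.99 and -4.45, and in reactivated Th2 cells at -2.97 and -4.58. Each context thus lost between 1.58 and 2.57 log2 units. The mean fall was 2.06 ± 0.17 (SE, 4 contexts), a 4.16-fold lower level, with an adjusted p of 8.28e-06 by limma. At 24 hr, in Th1 cells alone, the differences were -2.36 in unstimulated and -2.38 in reactivated cells.

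Tnfrsf18 went from 2.50 to 0.86 and from 1.79 to 0.39 in unstimulated and reactivated Th1 cells, and from 1.198 to -0.03 and from 1.24 to -0.47 in Th2 cells. It fell by 1.496 ± 0.15 (log2, SE, 4 contexts), a 2.82-fold lower level, with an adjusted p of 2.54e-05 by limma. Th2 cells, which had more Tnfrsf18 than naive cells with DMSO, were below naive with the drug. At 24 hr the Th1 differences were -1.74 and -2.41, and the reactivated array with JQ1 had the lowest Tnfrsf18 value of all 24 arrays, -0.98.

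Cd27, the receptor for Cd70, fell by 1.23 ± 0.16 (log2, SE, 4 contexts) with an adjusted p of 1.4e-04 by limma, and its second probe gave -1.34. It went from -0.78 to -2.46 and from -1.41 to -3.03 in Th2 cells, and from -1.90 to -2.83 and from -2.15 to -2.81 in Th1 cells. The falls were thus 1.67 and 1.63 in Th2 cells against 0.93 and 0.67 in Th1 cells. The test of that difference gave 0.85 ± 0.19 (Th1 minus Th2), with an adjusted p of 0.357 by limma. Slide and cell type cannot be told apart in it, since the Th2 JQ1 arrays were on another slide than their DMSO arrays.

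Fas, the receptor for Fasl, fell by 1.08 ± 0.13 (log2, SE, 4 contexts), a 2.11-fold lower level, with an adjusted p of 1.05e-04 by limma. In Th1 cells it went from 1.46 to -0.07 and from 1.15 to 0.17, and in Th2 cells from -0.59 to -1.23 and from 0.88 to -0.27. Tnfrsf4 fell by 0.58 ± 0.11 with an adjusted p of 0.0014, and by 0.26 to 0.84 in single contexts. With JQ1 it was still at 1.62 to 4.50 and so above naive in every context.

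Tnfrsf1a fell by 0.54 ± 0.07 (log2, SE, 4 contexts) with an adjusted p of 1.43e-04 by limma, from 0.47 to 0.57 in single contexts, but its dimmer probe gave -0.04 with an adjusted p of 0.811. Tnfrsf9 fell by 0.29 ± 0.09 by its brighter probe, with an adjusted p of 0.0185 by limma. That call was lost with Cy3 alone, at 0.096 (adjusted p 0.525), and with the deposited processed values, at 0.039 (0.802), both of the opposite sign. It was also lost when single arrays were left out. Without the reactivated Th1 DMSO array Tnfrsf9 was at -0.25 (adjusted p 0.0719), and without the reactivated Th2 DMSO array at -0.26 (0.0657). Without the reactivated Th2 array with 500 nM JQ1 it was at -0.24 (0.0694). The dimmer Tnfrsf9 probe gave -0.30 (0.153), and in Cy3 it differed by -1.81 to -0.73 in single contexts. Tnfrsf1b was at -0.03, with a 95% interval of -0.23 to 0.18 and an adjusted p of 0.835, so a change of more than 0.23 log2 units in its mean lay outside the interval.

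The falls were found on arrays of 1 slide as well as across slides. The Th1 arrays with DMSO and JQ1 at 6 hr shared a slide, and there Tnfrsf25 differed by -2.57 and -1.58, Tnfrsf18 by -1.64 and -1.40, Fas by -1.53 and -0.98 and Cd27 by -0.93 and -0.67. The summed log2 ratio of the 4 B cell markers also moved with the drug, from 4.63 and 3.93 to 0.57 and 0.50 in Th1 cells and from 10.02 and 9.74 to 6.27 and 6.94 in Th2 cells. That of both CD8 markers went from 0.16 and -0.51 to -1.15 and -1.84 in Th1 cells and from -1.28 and -1.97 to -1.91 and -2.14 in Th2 cells. The sum of the 3 NK markers went from 1.02 and -0.18 to -1.63 and -2.08 in Th1 cells, and from -3.005 and -3.59 to -3.77 and -3.25 in Th2 cells. The regulatory T cell sum was lower with the drug in 4 of 4 contexts, at 7.39 and 6.47 against 10.29 and 8.96 in Th1 and at 3.96 and 4.94 against 6.42 and 5.22 in Th2 cells. So was that of the 3 dendritic cell markers, at -0.20 to 1.13 against 0.31 to 2.36. Within the regulatory T cell sum the genes differed. Foxp3 was higher with the drug in each context, at -0.53 and -0.47 against -0.67 and -0.58 in Th1 cells. In Th2 cells it was at -0.42 and -0.53 against -0.60 and -0.77. Ikzf2 and Ctla4 were lower in each context, and Il2ra went both ways. The part of these markers in the receptor values was not tested.

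The dose series separated the receptors further. At 50 nM no receptor passed the test against DMSO, and of all genes 0.333% did. The values ran from -0.66 for Tnfrsf25 to -0.14 for Tnfrsf1a among the 7 that fell at 500 nM. Between 50 and 500 nM, 6 of 8 receptors fell, against 20.5% of all genes. Tnfrsf25 fell by 1.40 ± 0.17 (log2, SE, 4 contexts, adjusted p 2.46e-04), Tnfrsf18 by 1.05 ± 0.15 (5.87e-04), Fas by 0.86 ± 0.13 (9.9e-04) and Cd27 by 0.75 ± 0.16 (0.00527), all by limma. Tnfrsf4 fell by 0.41 ± 0.11 (0.0153) and Tnfrsf1a by 0.40 ± 0.07 (0.00184). The Tnfrsf4 call was lost without the unstimulated Th1 50 nM array (-0.36, adjusted p 0.0614) and without either reactivated Th2 array, of 50 nM (-0.38, 0.0598) or of 500 nM (-0.35, 0.0544), and the Tnfrsf1a call with its dimmer probe (-0.05, 0.746). Tnfrsf25 was lower with the higher dose in each context, and also lower with 50 nM than with DMSO, by 0.32 to 1.06.

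**Figure D3:**
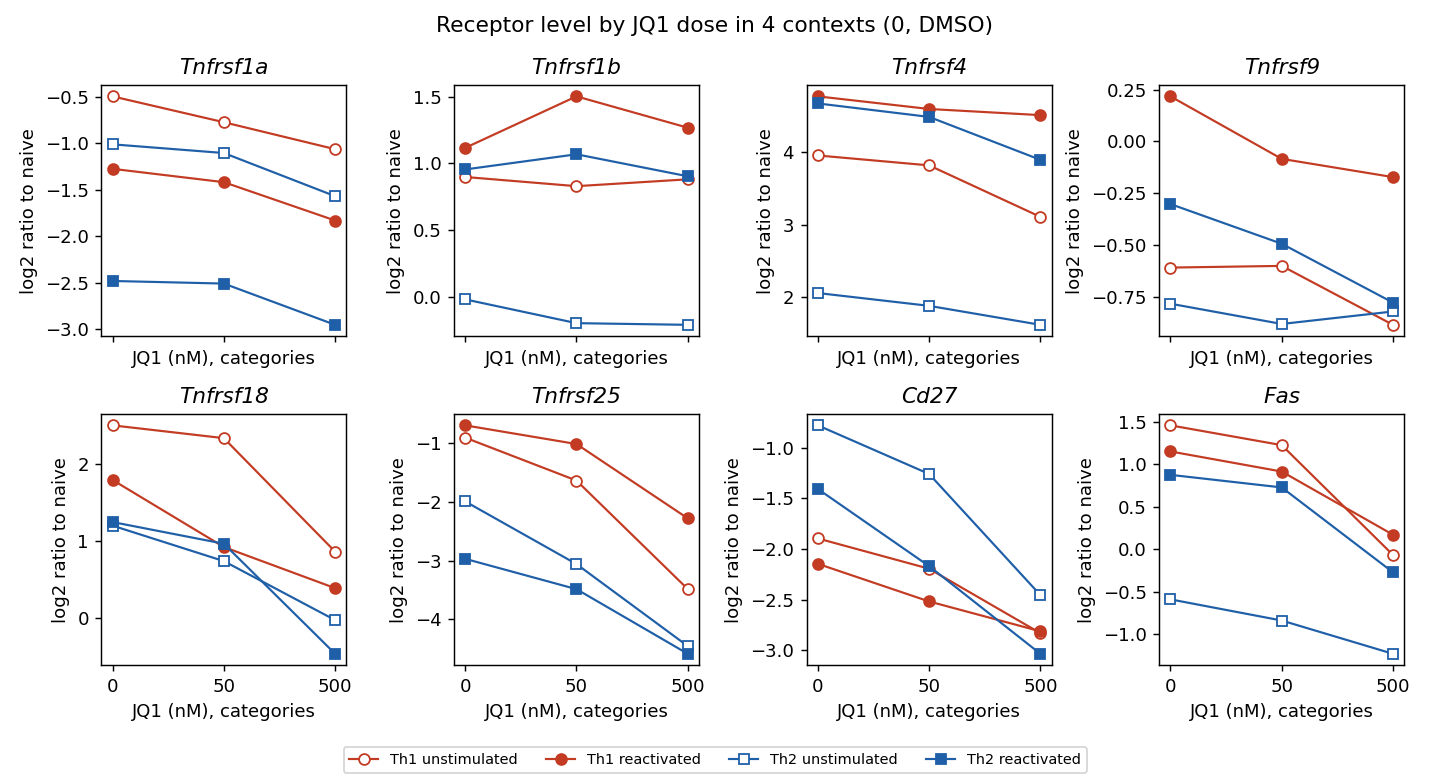
Log2 ratio to naive (vertical axes, different ranges) of the 8 receptors against JQ1 dose in nM as categories, where 0 is DMSO, with a line for each of the 4 contexts and 1 array per point. The 4 lines fall at both steps for Tnfrsf25, Tnfrsf18, Cd27, Fas, Tnfrsf4 and Tnfrsf1a, most between 50 and 500 nM for Tnfrsf25. Tnfrsf1b and Tnfrsf9 show no common direction at the single steps, although all 4 Tnfrsf9 lines end lower at 500 nM than at 0.

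Whether reactivation altered the effect of 500 nM JQ1 was tested as the difference between reactivated and unstimulated cells. It passed for 1 of 8 receptors, Tnfrsf25, at 0.92 ± 0.17 (log2, SE) with an adjusted p of 0.0127 by limma, where 4.52% of all genes were higher in this comparison and 10.1% passed in either direction, so that 1 of 8 was near the background. Tnfrsf25 fell by 2.57 and 2.46 in unstimulated Th1 and Th2 cells and by 1.58 and 1.61 in reactivated cells. Without the reactivated Th1 DMSO array the difference was 0.86 with an adjusted p of 0.0528, and without the unstimulated Th2 DMSO array 0.86 with an adjusted p of 0.0654. When the arrays were scaled by spike-in RNA it was -0.25, beside a median of -1.18 over all genes, so that Tnfrsf25 stayed above that median. With median centring it was 0.61 with an adjusted p of 0.154. The 24 hr Th1 arrays, which the test did not use, showed no such difference, with falls of 2.36 in unstimulated and 2.38 in reactivated cells. For the other 7 receptors the values ran from -0.28 for Tnfrsf9 to 0.16 for Cd27. By its dimmer probe, Tnfrsf9 gave 0.82 with an adjusted p of 0.028. Between Th1 and Th2 cells no receptor's JQ1 effect differed by the test, and neither did that of any gene (0% called by limma, 905 of 12911 at an unadjusted p below 0.05).

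Flavopiridol at 10 µM lowered Tnfrsf4 and Fas most, and in addition Tnfrsf1b and Cd27, while the probes of Tnfrsf9 disagreed. The comparison asked what loss of P-TEFb activity does to each transcript in the same 4 contexts. By their brightest probes 5 of 8 receptors fell and none rose by limma, the 5 including Tnfrsf9, where 33.4% of all 12432 genes fell. The median difference was -0.78 over the receptors and -0.22 over all genes. The arrays with flavopiridol were never on the slide of their DMSO arrays, and with slide as a random block only Tnfrsf4 (adjusted p 9.36e-04), Fas (0.00363) and Tnfrsf9 (0.0199) passed.

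Tnfrsf4 went from 3.95 to -0.80 in unstimulated and from 4.76 to -0.25 in reactivated Th1 cells. In Th2 cells it went from 2.06 to -0.49 and from 4.66 to -0.40. It fell by 4.34 ± 0.42 (log2, SE, 4 contexts), a 20.3-fold lower level, with an adjusted p of 9.25e-05 by limma. Tnfrsf4 lay between -1.08 and -0.25 on the 8 flavopiridol arrays and between 1.62 and 4.76 on the other 16, so the drug brought it below the naive level in every context. Normalized Cy5 of this probe was 11.38 to 11.55 with flavopiridol and 11.35 to 12.92 elsewhere. In the sample channel alone, the differences from DMSO were -6.34 to -2.65.

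Fas went from 1.46 to -1.77 and from 1.15 to -1.57 in Th1 cells, and from -0.59 to -1.68 and from 0.88 to -1.76 in Th2 cells. It fell by 2.42 ± 0.33 (log2, SE, 4 contexts), a 5.35-fold lower level, with an adjusted p of 4.55e-04 by limma. On the 8 flavopiridol arrays Fas lay between -2.41 and -1.57, below the lowest of the other 16 arrays at -1.23. Normalized Cy5 of the Fas probe ranged over 0.30 log2 units across all 24 arrays.

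The brighter probe of Tnfrsf9 fell by 1.104 ± 0.23 (log2, SE, 4 contexts, adjusted p 0.0041), while the dimmer one gave 0.99 (0.0788) and the mean of both -0.06 (0.871). Tnfrsf1b fell by 0.70 ± 0.21 (0.0218) and Cd27 by 0.58 ± 0.17 (0.0209), all by limma. Tnfrsf1b was not well above background on either Th2 array with 1 µM flavopiridol. Both calls were lost when single arrays were left out. Tnfrsf1b lost its call without the reactivated DMSO array of Th1 (-0.68) or Th2 cells (-0.51), or without the unstimulated (-0.69) or reactivated (-0.61) Th2 array with 10 µM, with adjusted p of 0.0508 to 0.0772. Cd27 lost its call without the unstimulated 10 µM array of Th1 (-0.56, 0.065) or Th2 cells (-0.50, 0.0737), and by its dimmer probe (-0.35, 0.201).

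Tnfrsf25 and Tnfrsf18 did not pass with flavopiridol. Tnfrsf25 was at 0.27 ± 0.24, with a 95% interval of -0.27 to 0.81 and an adjusted p of 0.373 by limma, and its single contexts ran from -0.39 in reactivated Th1 to 1.198 in reactivated Th2 cells. Under median centring in place of loess it passed as a fall, at -0.48 (adjusted p 0.0471), beside a median of -1.05 over all genes. Tnfrsf18 was at -0.58 ± 0.24 with an adjusted p of 0.0788, and on the 8 flavopiridol arrays it stayed between 0.86 and 1.61, above naive. Its largest difference was -1.62 in unstimulated Th1 cells, against -0.29 to -0.20 in the other 3 contexts. It passed as a fall with median centring, at -1.29 (adjusted p 0.00193), again beside the median of -1.05, and with spike-in scaling, at -1.28 (0.00277), beside a median of -0.92.

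Tnfrsf1a differed most between the flavopiridol doses, although it did not pass the test as analysed. It was at -3.77 and -3.84 in Th1 cells and -3.17 and -3.42 in Th2 cells with 1 µM, and at -2.20, -2.18, -2.13 and -2.20 with 10 µM. The higher dose was thus above the lower dose by 1.03 to 1.66 in all 4 contexts, a mean of 1.37 ± 0.33 with an adjusted p of 0.0938 by limma, and 0.0137 without the reactivated Th2 DMSO array. It passed at 1.89 (0.0187) without background correction and at 2.59 (0.00606) with the scanner software's log ratio. Against DMSO, Tnfrsf1a fell by 2.23 with 1 µM (adjusted p 5.98e-04), while 10 µM gave -0.86 ± 0.33 (0.0575). The latter passed at -2.19 (1.47e-04) with median centring, where the median of all genes was -1.05, at -1.56 (5.24e-04) with spike-in scaling, where it was -0.92, and at -0.90 (0.0422) without background correction. By the dimmer probe 1 µM differed from DMSO by -0.91 to 0.26, the step between the doses was 0.25 to 0.54 and the mean for 10 µM against DMSO was 0.03 (0.91). None of the 8 receptors passed between the doses, where 1.87% of all genes did.

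With 1 µM flavopiridol, Tnfrsf4 fell by 4.66 (adjusted p 4.58e-05), Fas fell by 2.875 (1.45e-04), Tnfrsf1b fell by 1.12 (0.00203) and Cd27 fell by 0.73 (0.00682). The brighter probe of Tnfrsf9 fell by 0.91 (0.00977), but the dimmer one was higher than with DMSO in 3 of 4 contexts, from -0.24 to 2.50. The same fit with limma gave 0.00 for Tnfrsf25 (0.993). By their brightest probes, 6 of 8 receptors thus fell with the lower dose, where 35.4% of all genes did, and Tnfrsf1a was the one not called with the higher dose. Beside these values, the summed log2 ratio of the 4 B cell markers was -0.70 to -0.22 in Th1 cells with flavopiridol and 3.87 to 5.79 in Th2 cells. That of both CD8 markers was 1.955 to 2.44 and -0.69 to -0.54, that of the 3 NK markers 1.196 to 1.58 and -2.37 to -1.92, that of the 4 myeloid markers -2.31 to -1.62 and -0.65 to 0.745, and that of the 3 dendritic cell markers -0.41 to -0.045 and -0.018 to 1.585. Some of these sums are near the floor. On the Th1 flavopiridol arrays 1 to 3 B cell and 0 dendritic cell markers were above background, and 0 to 3 dendritic cell markers on the Th2 ones. Their part in the receptor values was not tested, nor was that of the smaller share of probes above background on these arrays.

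With flavopiridol, reactivated and unstimulated cells lay closer together in Tnfrsf4 and Tnfrsf1a than with DMSO, by an amount that did not pass the test given after the values. Tnfrsf4 was higher in reactivated Th1 cells by 0.52 with 1 µM and 0.55 with 10 µM, and in Th2 cells by 0.035 and 0.09, against 0.81 to 2.60 with DMSO. Tnfrsf1a differed by -0.08 and 0.02 in Th1 and by -0.25 and -0.07 in Th2 cells, against -1.47 to -0.78 with DMSO. The test of this difference did not pass for any receptor, with -1.39 ± 0.69 for Tnfrsf4 (adjusted p 0.225) and 1.097 ± 0.56 for Tnfrsf1a (0.24) by limma, where 15.8% of all genes passed. Without the unstimulated 6 hr Th1 DMSO array Tnfrsf4 was at -2.48 (0.00598) and Fas at -1.56 (0.027), and without the reactivated one Tnfrsf1a was at 1.80 (0.0286). Without the unstimulated Th2 DMSO array Tnfrsf18 was at 1.303 (0.038), and without the reactivated one Tnfrsf9 was at -1.15 (0.0394). With slide as a random block Tnfrsf1a was at 1.097 with an adjusted p of 0.0438. Between Th1 and Th2 cells no receptor's flavopiridol effect passed either, where 0.0161% of all genes, or 2, did and 1610 had an unadjusted p below 0.05.

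**Figure D4:**
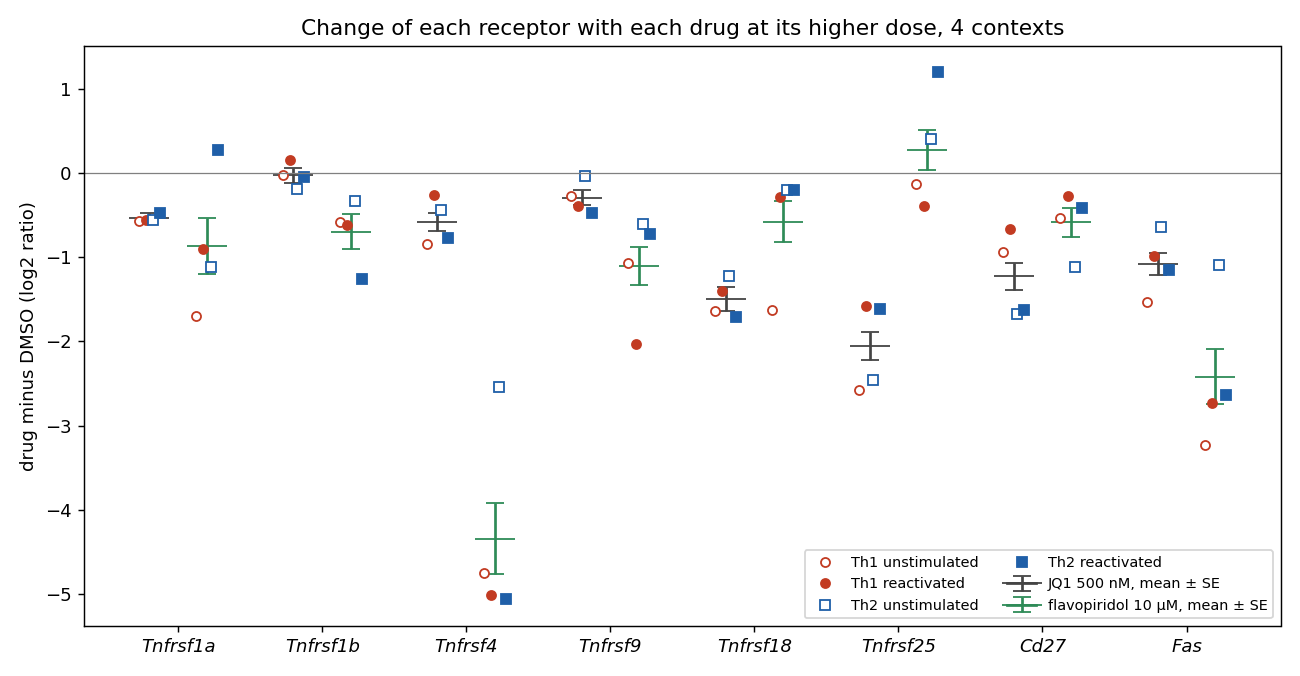
Difference from DMSO in the log2 ratio (vertical axis) for each of the 8 receptors (horizontal axis) with 500 nM JQ1, left of each name, and 10 µM flavopiridol, right of each name. Points are the 4 contexts and bars are the fitted mean ± SE. Tnfrsf4 fell by 4.34 with flavopiridol and 0.58 with JQ1, while Tnfrsf25 fell by 2.06 with JQ1 and was at 0.27 with flavopiridol.

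The drugs were compared directly at their higher doses, which are not matched in molar terms. Arrays of both drugs never shared a slide within a context, so drug and slide cannot be told apart there. The difference passed for 7 of the 8 receptors, in both directions. Tnfrsf25, Tnfrsf18 and Cd27 were higher with flavopiridol than with JQ1, where 22.9% of all 13114 genes were, and Tnfrsf4, Fas, Tnfrsf1b and the brighter probe of Tnfrsf9 were lower, where 33.9% were. Tnfrsf9 was at -0.81 ± 0.21 (log2, SE, 4 contexts, adjusted p 0.00457) by that probe, at 1.28 (0.0341) by the dimmer one and at 0.24 (0.492) by their mean, all by limma, so no direction can be given for it. Tnfrsf4 was lower by 3.76 ± 0.43 (log2, SE, 4 contexts), or 13.6-fold, with an adjusted p of 2.8e-06 by limma, and lower in 4 of 4 contexts. Tnfrsf25 was higher by 2.33 ± 0.27, or 5.02-fold, with an adjusted p of 3.43e-06, and higher by 1.19 to 2.87 in 4 of 4 contexts.

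Fas was lower with flavopiridol by 1.34 ± 0.30 (adjusted p 0.00148) and Tnfrsf18 higher by 0.92 ± 0.27 (0.00973), in 4 of 4 contexts each, by limma. The Tnfrsf18 difference did not pass with median centring (0.46, adjusted p 0.206) or spike-in scaling (0.66, 0.183). Cd27 was higher by 0.64 ± 0.18 (0.00611), but its sign turned under median centring, to -0.38 (0.167), where the median of all genes was -0.62, and its call was lost with spike-in scaling (0.38, 0.417), where that median was -0.37. Tnfrsf1b was lower by 0.67 ± 0.22 (0.0179), and its call was lost without the reactivated Th2 array with 500 nM JQ1 (-0.59, 0.0593) or with 10 µM flavopiridol (-0.53, 0.0721), and with the scanner software's log ratio (-1.01, 0.0669). Tnfrsf1a was at -0.33 ± 0.31, with a 95% interval of -0.99 to 0.34 and an adjusted p of 0.396, but passed as lower with flavopiridol under median centring, at -1.31 (9.16e-04). The neighbouring genes Tnfrsf4 and Tnfrsf18 thus differed between the drugs with opposite signs. The comparisons of each drug with DMSO share the same 4 DMSO arrays. Marker sums of other cells differed between the drugs too. In unstimulated and reactivated Th1, then Th2 cells, the regulatory T cell sum was 9.90, 9.49, 9.02 and 8.42 with flavopiridol. It was 7.39, 6.47, 3.96 and 4.94 with JQ1. The CD8 sum was 2.07, 1.955, -0.57 and -0.645 against -1.15, -1.84, -1.91 and -2.14. NK sums were also higher with flavopiridol and B cell sums lower in each context, while dendritic and myeloid cell sums went both ways. Their part was not tested.

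Among the 3 receptors with a second probe, those of Tnfrsf9 disagreed most. Both probes carry the same transcript accession. Over the 24 arrays the log2 ratios of the brighter and the dimmer probe had a Pearson r of -0.06 and differed by 1.19 to 5.85 log2 units. For comparison, r was 0.95 between the probes of Cd27, which differed by up to 0.60, and 0.78 between those of Tnfrsf1a, which differed by 0.29 to 2.75 and gave different calls with 500 nM JQ1. The dimmer Tnfrsf9 probe was well above background on all 24 arrays in the sample channel. Brighter and dimmer refer to the mean of both channels over these arrays. In Cy3 alone the dimmer probe ranged from 7.27 to 13.70 and the brighter one from 9.99 to 11.38, so the label does not hold for the sample channel of every array.

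In the sample channel, the dimmer probe of Tnfrsf9 went from a normalized Cy3 of 10.76 to 13.59 with reactivation in Th1 cells at 6 hr, from 11.11 to 13.70 at 24 hr and from 7.99 to 12.66 in Th2 cells. Its reference channel rose too, from 7.85 to 10.08, from 7.93 to 10.21 and from 7.11 to 9.32. The ratio therefore differed by 0.60, 0.31 and 2.46, a mean of 1.12 ± 0.40 (log2, SE, 3 pairs) with an adjusted p of 0.0552 by limma. Normalized Cy5 of this probe ranged over 3.31 log2 units across the arrays, against 0.18 to 0.36 for the probes of Tnfrsf1a, Tnfrsf1b, Tnfrsf18, Tnfrsf25, Cd27 and Fas, 0.93 for the brighter Tnfrsf9 probe and 1.57 for Tnfrsf4. For all probes above background in Cy5 on every array, the SD of the difference between a pair of arrays was 0.19 (median of 276 pairs).

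Both Tnfrsf9 probes were thus higher after reactivation with DMSO in 3 of 3 pairs, and in the sample channel the dimmer one was higher by 2.59 to 4.67. With flavopiridol they parted. The brighter probe was at a Cy3 of 9.99 to 10.84 and a Cy5 of 11.50 to 11.80 on the flavopiridol arrays, where Cy5 was 10.87 to 11.57 elsewhere, and with Cy3 alone its difference from DMSO was -0.37 with an adjusted p of 0.141 by limma. The dimmer probe with flavopiridol was at a Cy3 of 10.31 to 11.92 (11.53 to 11.92 in Th1 and 10.31 to 10.45 in Th2 cells), above the unstimulated and below the reactivated DMSO arrays of the same cell type. No direction of Tnfrsf9 with flavopiridol can be given from these probes.

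**Figure D5:**
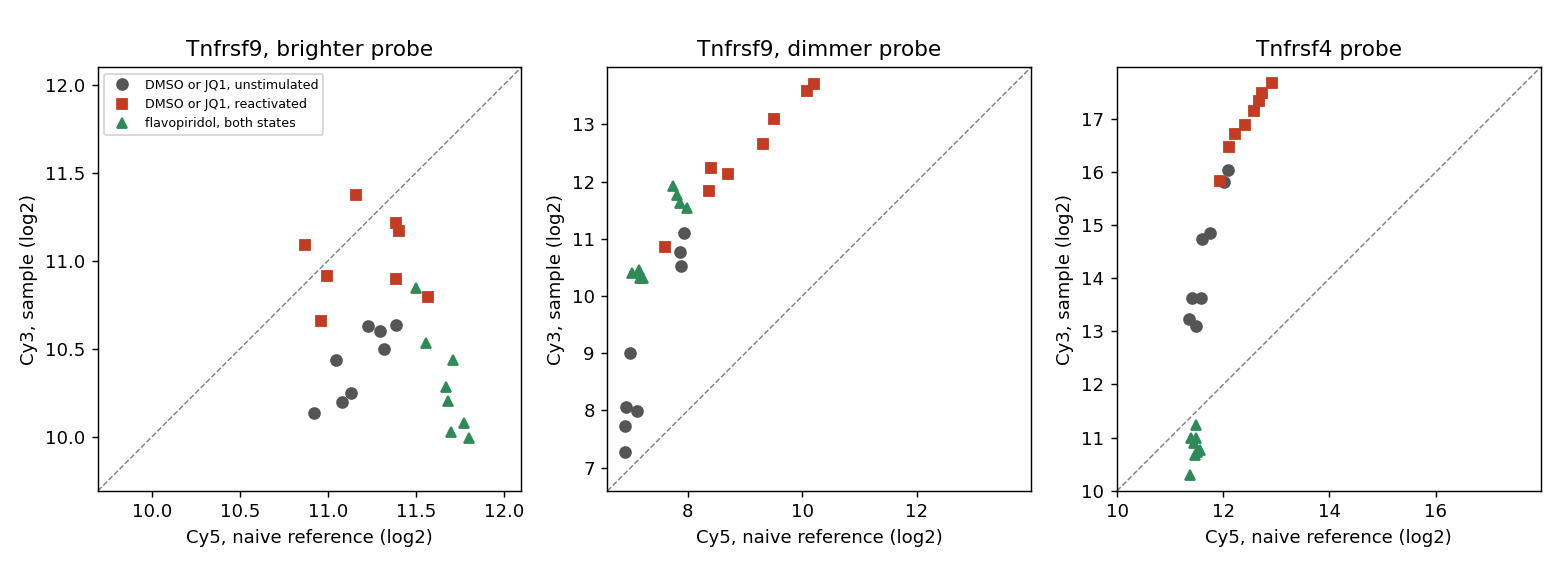
Normalized sample intensity (Cy3, log2, vertical axes) against reference intensity (Cy5, log2, horizontal axes) for both Tnfrsf9 probes and the Tnfrsf4 probe on 24 arrays, with the line of equal intensity dashed. For the dimmer Tnfrsf9 probe Cy5 reached 10.21 on reactivated arrays and was 6.89 at its lowest, and for Tnfrsf4 it ranged from 11.35 to 12.92.

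Th1 cells carried more of 7 receptors than Th2 cells, and less Cd27. The comparison used 6 matched pairs with DMSO or JQ1, and all 8 receptors passed by limma. Of all 12911 genes, 14.5% were higher and 14.1% lower in Th1 cells. The median difference was 0.83 over the receptors and -0.01 over all genes. The 2 DMSO pairs share a slide and the 4 JQ1 pairs do not, and over the JQ1 pairs alone 3 receptors passed, Tnfrsf1a, Tnfrsf1b and Tnfrsf25.

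Tnfrsf25 differed most, by 1.75 ± 0.22 (log2, SE, 6 pairs), or 3.37-fold, with an adjusted p of 8.51e-04 by limma. It was higher in Th1 cells in 6 of 6 pairs, by 0.97 to 1.42 in unstimulated and 2.27 to 2.47 in reactivated cells. With DMSO it was at -0.91 in Th1 and -1.99 in Th2 cells before and at -0.70 and -2.97 after reactivation. Tnfrsf1a was higher by 0.79 ± 0.13 (adjusted p 0.00333) and likewise by more in reactivated pairs, 1.09 to 1.204, than in unstimulated pairs, 0.33 to 0.52. Whether these differences between states hold was not tested.

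Fas, Tnfrsf4 and Tnfrsf1b had the other order, with the larger differences in unstimulated pairs. Fas was higher by 1.03 ± 0.28 (log2, SE, 6 pairs, adjusted p 0.0249 by limma), with 1.17 to 2.07 in unstimulated and 0.19 to 0.44 in reactivated pairs. Tnfrsf4 was higher by 1.02 ± 0.27 (0.0245), with 1.48 to 1.93 and 0.10 to 0.61. Tnfrsf1b was higher by 0.67 ± 0.13 (0.00795), with 0.92 to 1.09 and 0.16 to 0.44. Tnfrsf18 was higher by 0.86 ± 0.19 (0.0112), in 5 of 6 pairs. Tnfrsf9 was higher by 0.32 ± 0.09 (0.034), in 5 of 6 pairs, and by its dimmer probe by 1.07 (0.0214). That call was lost in 8 of 13 alternatives other than leaving out an array, among them median centring (0.21, 0.193), spike-in scaling (0.23, 0.537), Cy3 alone (0.21, 0.18), the scanner software's log ratio (0.32, 0.0572) and the authors' values (0.23, 0.15).

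Cd27 was lower in Th1 cells by 0.55 ± 0.16 (log2, SE, 6 pairs), with an adjusted p of 0.0346 by limma, in 5 of 6 pairs. It lost its call in 5 of 13 such alternatives, among them Cy3 alone (-0.47, 0.0927), the scanner software's log ratio (-0.67, 0.0511) and the authors' values (-0.45, 0.118). Of the 8 calls, those of Tnfrsf1a, Tnfrsf1b, Tnfrsf18 and Tnfrsf25 were kept when any array was left out. The calls of Tnfrsf4 and Fas were each lost without any one of the 6 unstimulated arrays, where Tnfrsf4 was at 0.84 to 0.93 (adjusted p 0.065 to 0.0714) and Fas at 0.83 to 1.01 (0.0615 to 0.0651). Tnfrsf9 and Cd27 were each kept without only 2 of the 12 arrays, with values of 0.26 to 0.40 and -0.70 to -0.44 over all 12. With flavopiridol the brighter Tnfrsf9 probe was lower in Th1 cells in 4 of 4 pairs, at -0.79 to -0.22, and the dimmer one higher in 4 of 4, at 0.39 to 0.88. The 4 pairs ran from -0.31 to 0.20 for Tnfrsf4, -0.09 to 0.80 for Fas and -0.60 to 0.02 for Tnfrsf1a, while Tnfrsf25 was still higher in Th1 cells in 4 of 4 pairs, by 0.54 to 1.11. The B cell markers moved with this comparison, with a summed log2 ratio of 0.49 to 4.63 on the 10 Th1 arrays and 6.27 to 10.02 on the 6 Th2 arrays without flavopiridol. Each of the 4 B cell markers was higher in Th2 than in Th1 cells with DMSO in the same state, among them Ms4a1 at 4.03 and 3.84 against 1.71 and 1.60 at 6 hr, and their part in the receptor differences was not tested. Markers of CD8 T and NK cells moved with it as well. On the arrays without flavopiridol the summed log2 ratio of both CD8 markers was -1.84 to 1.05 in Th1 and -2.14 to -1.28 in Th2 cells, with Cd8a at 0.86 to 1.87 in Th1 and at -0.02 and -0.11 in Th2 cells with DMSO. That of the 3 NK markers was -2.68 to 1.02 in Th1 and -3.77 to -3.005 in Th2 cells. The regulatory T cell sum was higher in Th1 cells in 6 of 6 pairs, at 6.29 to 10.29 against 3.96 to 6.42. Of its genes, Ikzf2, Il2ra and Ctla4 were higher in Th1 cells in each pair. Foxp3 had no common direction, at -0.755 to -0.47 in Th1 and -0.77 to -0.42 in Th2 cells. Their part was not tested either.

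Between 6 and 24 hr, 1 of the 8 receptors passed in Th1 cells, where 2.87% of all genes fell. Tnfrsf18 fell by 0.71 ± 0.16 (log2, SE, 4 pairs), with an adjusted p of 0.0456 by limma, by 0.36 to 1.36 in single pairs. Its call was lost without any one of 6 of the 8 arrays, with values of -0.78 to -0.50 and adjusted p of 0.111 to 0.125. The largest difference, -1.36, was in reactivated cells with 500 nM JQ1. The 24 hr arrays of these cells were all on another slide than the 6 hr arrays, so time and slide cannot be told apart. The regulatory T cell sum was also lower at 24 hr in 4 of 4 pairs, at 7.77 and 6.46 against 10.29 and 8.96 with DMSO and at 3.935 and 4.402 against 7.39 and 6.47 with JQ1. The sums of the NK and dendritic cell markers were lower in 4 of 4 pairs too, at -2.68 to 0.46 against -2.08 to 1.02 and at -0.39 to 1.71 against -0.20 to 1.76. That of the CD8 markers was higher in 4 of 4 pairs, at -1.31 to 1.05 against -1.84 to 0.16. Unlike the regulatory T cell sum, Foxp3 itself was higher at 24 hr in each pair. It was at -0.39 and -0.47 against -0.67 and -0.58 with DMSO, and at -0.23 and -0.285 against -0.53 and -0.47 with JQ1. Ctla4 was lower in each pair. The part of these markers was not tested. Fas was at -0.26 ± 0.20 (adjusted p 0.452), with -1.13 in unstimulated cells with DMSO and -0.20 to 0.27 in the other 3 pairs.

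The ligands of these receptors were read beside them from a fixed list of 8. Of them 7 could be tested, and 6 rose with reactivation, where 21.9% of all genes did, and none fell. Tnf rose by 3.82 ± 0.29 (log2, SE, 3 pairs, adjusted p 3.02e-04), Fasl by 2.48 ± 0.59 (0.0134), Lta by 2.45 ± 0.16 (2.3e-04) and Cd70 by 2.26 ± 0.20 (4.12e-04) by limma. Tnfsf4, the ligand of Tnfrsf4, rose by 2.03 (0.00108) and Tnfsf9, that of Tnfrsf9, by 1.79 (0.00209), while Tnfsf15 was at 0.19 (0.365). The median over the 7 ligands was 2.26, against 0.16 over the receptors and -0.05 over all genes. Tnfsf18, the ligand of Tnfrsf18, was above background on too few arrays to be tested.

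With 10 µM flavopiridol 5 of 7 ligands fell, against 33.4% of all genes, by 3.89 for Tnfsf9 (adjusted p 1.51e-04), 2.71 for Cd70 (0.00181), 2.70 for Fasl (0.00924), 2.66 for Tnfsf4 (0.00404) and 1.96 for Tnf (0.0191), by limma, while Tnfsf15 was at -0.36 (0.31). With 500 nM JQ1 also 5 of 7 fell, against 29.8% of all genes, by 2.15 for Fasl (8.21e-04), 1.54 for Lta (5.19e-05), 1.37 for Cd70 (1.25e-04), 0.87 for Tnfsf9 (0.00145) and 0.35 for Tnfsf15 (0.00458), while Tnfsf4 was at -0.64 (0.102) and Tnf at -0.12 (0.547). Lta, which also binds Tnfrsf1a and Tnfrsf1b, was at 1.21 with flavopiridol (0.0666) and was higher with flavopiridol than with JQ1 by 2.75 (6.2e-05). In Th1 against Th2 cells 6 of 7 ligands were higher, against 14.5% of all genes, by 1.48 for Lta (6.74e-06), 1.45 for Fasl (0.0453), 1.38 for Tnfsf4 (0.00505), 1.34 for Tnf (0.00299), 1.27 for Tnfsf9 (1.5e-04) and 0.62 for Cd70 (0.0151), while Tnfsf15 was at -0.04 (0.862).

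The other receptors of the superfamily, a list of 20 that were all on the array, did not move as one. Over all genes, 21.9% rose and 29.1% fell with reactivation, 17.7% and 29.8% with 500 nM JQ1 and 15.4% and 33.4% with 10 µM flavopiridol, and 14.5% were higher and 14.1% lower in Th1 cells, and the counts of this list and of the next ones are to be read against these shares. With reactivation 5 of 14 tested rose and 3 fell, led by Tnfrsf26 (-2.21, adjusted p 2.3e-04), Cd40 (1.79, 0.00336) and Tnfrsf10b (0.95, 0.0119) by limma. With 500 nM JQ1 5 of 15 rose and 4 fell, and the largest changes were rises, of Tnfrsf23 (1.38, 2.55e-06) and Tnfrsf12a (1.37, 1.37e-06), and a fall of Tnfrsf13c (-1.06, 2.21e-04). With 10 µM flavopiridol 2 of 12 rose and 4 fell, led by Cd40 (-2.72, 8.98e-04), Tnfrsf13c (-2.12, 1.81e-04) and Tnfrsf12a (-1.41, 2.88e-04). Tnfrsf12a, the receptor for TWEAK, thus rose with JQ1 and fell with flavopiridol. Cd40 and Tnfrsf13c, the receptor for BAFF, are known from B cells, whose markers were measured on these arrays. In Th1 against Th2 cells 3 of 15 were higher and 2 lower, led by Tnfrsf13c (-1.31, 6.27e-04), Tnfrsf10b (0.89, 0.00613) and Tnfrsf23 (0.69, 0.00421). The list medians were 0.35 with reactivation, -0.17 with JQ1, -0.24 with flavopiridol and -0.06 between Th1 and Th2 cells.

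Among 13 adaptors and regulators of death signalling, 3 rose and 4 fell with reactivation, with Cflar (2.50, adjusted p 3.38e-04), an inhibitor of caspase-8 activation, Traf1 (1.72, 2.82e-04) and Birc2 (-0.75, 0.00434) changing most by limma. With 10 µM flavopiridol 11 of 13 fell, against 33.4% of all genes, and none rose, led by Traf1 (-2.49, 0.00347), Traf2 (-2.06, 1.52e-04) and Traf4 (-1.87, 7.84e-04), and the median was -1.15 against -0.22 over all genes. With 500 nM JQ1 6 fell and 2 rose, led by Cflar (-1.66, 0.00118), Traf1 (-1.27, 0.00185) and Birc3 (-0.91, 4.19e-04). In Th1 against Th2 cells 3 were higher and none lower: Traf1 (2.36, 5.48e-05), Birc3 (1.003, 0.00574) and Traf4 (0.41, 0.0249).

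Of 10 listed genes of the NF-kB pathway, its subunits and regulators among them, 7 rose with reactivation, against 21.9% of all genes, and none fell. The rises were led by Nfkb1 (2.38, adjusted p 3.82e-04), Tnfaip3 (1.57, 0.0076) and Nfkb2 (1.54, 0.00164) by limma. With 10 µM flavopiridol all 9 that could be tested fell, against 33.4% of all genes, led by Nfkbia, the NF-kB inhibitor (-4.84, 5.16e-04), Tnfaip3 (-3.70, 0.00207) and Rela (-2.93, 2.06e-04), with a median of -2.63. With 500 nM JQ1 4 fell and 2 rose, led by Relb (-0.78, 0.0012), Nfkbie (-0.65, 0.0061) and Map3k14 (0.48, 0.00567), with a median of -0.30. In Th1 against Th2 cells 6 were higher and none lower, led by Tnfaip3 (1.86, 5.93e-04), Relb (1.28, 0.0309) and Nfkb2 (1.24, 0.0021).

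The pattern of each receptor over the 24 arrays was set against that of 13305 genes, as a description and by the brightest probe of each gene. Tnfrsf4 was most like Zdhhc5 (Pearson r 0.989) and Mul1 (0.981), Fas like Stx11 (0.963) and Spin4 (0.955), and the brighter Tnfrsf9 probe, which had an r of -0.06 with the dimmer one, like Il15ra (0.955) and Tnfaip3 (0.927). Tnfrsf1a was most like Gramd1a (0.948) and Cpt2 (0.946), Tnfrsf1b like Etv6 (0.94) and Uggt1 (0.936), Tnfrsf25 like Batf3 (0.9) and Ly6a (0.891), Tnfrsf18 like Bank1 (0.889) and Tg (0.855), and Cd27 like Siglecg (0.87) and Niban3 (0.866). Among the receptors themselves, Tnfrsf4 and Fas had an r of 0.947 over 24 arrays and 0.819 over the 16 without flavopiridol, and Tnfrsf18 and Tnfrsf25 of 0.739 and 0.774. The neighbours Tnfrsf4 and Tnfrsf18 had an r of -0.013 and 0.169. The points share arrays, treatments and the naive reference.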

How the data were processed

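Gene expression was measured on 24 two-colour Agilent arrays in 3 slides of 8. Spot intensities were deposited as written by Feature Extraction 10.7.1.1, per the file headers, with a log10 ratio and flags for background and saturation. The authors' value table holds log2 ratios of 34710 probes, in their own processing, which is not given in the sources used here, and correlated with the values used here at 0.981 to 0.996 per array.

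Median intensities were background-corrected by normexp (offset 50), normalized within arrays by loess and expressed as log2 of Cy3 over Cy5 with limma 3.58.1 in R 4.3.3. Control spots and 234 to 331 flagged spots per array were left out. Of 55681 probes, 26437 were named, 26425 of them by transcript accession. A gene was represented by its brightest probe, by the mean of log2 Cy3 and Cy5 over all 24 arrays. It was tested where it was well above background in Cy3 on at least 3 of the arrays of the comparison. Each comparison was fitted with limma over all genes, with the pair or the context (cell type and state) as a block where it has one, and p-values were adjusted by Benjamini-Hochberg with a threshold of 0.05. The contexts stand in for replicates, so the p-values measure the spread of an effect between conditions. The number of arrays limits the precision. The fits were tested on simulated data.

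All 8 receptors were named with their values, of a list the 3 largest called changes and the ligand of each receptor, and for each receptor the 2 genes with the highest Pearson r. Members and lists were chosen with earlier results of these data known. Alternatives covered background correction, normalization, spike-in scaling, the sample channel alone, the scanner software's log ratio, the authors' table, the filter, the probes of a gene, the block, slide as a random block and leaving out each array. The dimmer probes and the lower doses were chosen as alternatives after seeing the data.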

Additional observations from a re-analysis of the deposited data

Results flagged for a closer look

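The effect of 500 nM JQ1 on Tnfrsf25 differed between reactivated and unstimulated cells by a test of that difference, at 0.92 ± 0.17 (log2, SE) with an adjusted p of 0.0127 by limma. The falls were 2.57 and 2.46 in unstimulated Th1 and Th2 cells, against 1.58 and 1.61 in reactivated cells. In the 24 hr Th1 arrays, which the test did not use, the falls were 2.36 in unstimulated and 2.38 in reactivated cells. The call was lost without the reactivated Th1 DMSO array (0.86, adjusted p 0.0528), without the unstimulated Th2 DMSO array (0.86, 0.0654) and with median centring (0.61, 0.154), and with spike-in scaling the value was -0.25, beside a median of -1.18 over all genes.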

How the results depend on the processing

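Over the alternatives other than leaving out an array, the call was kept for Tnfrsf1a and Tnfrsf4 with reactivation, for Tnfrsf4 and Fas with 10 µM flavopiridol, for Tnfrsf4, Tnfrsf25 and Fas between the drugs, and for Tnfrsf4, Tnfrsf18, Tnfrsf25, Cd27 and Fas between the JQ1 doses. Of 8 receptors, 5 were called with flavopiridol (48.8% of all genes), against 8 with median centring (68.9%), 7 with spike-in scaling (59.5%) and 3 with the mean of probes (47.7%), slide as a random block (33.6%), no block (41.1%) or the dimmer probes (48.8%). With JQ1, 7 were called (47.5% of all genes), against 1 without the block (6.98%) and 0 at 50 nM (0.333%). Between Th1 and Th2 cells, 8 were called (28.6%), against 5 with the scanner software's log ratio (27.3%), 5 over 10 pairs with flavopiridol (35.6%), 3 over the 4 JQ1 pairs (13.3%) and 0 without the block (3.38%). The flavopiridol effect by reactivation gave 0 calls (15.8%), and 1 with slide as a random block (31.5%). The JQ1 effect by reactivation gave 1 (10.1%), against 0 with median centring (7.77%), 7 with spike-in scaling (92.2%, so near the share of all genes) and 2 with the dimmer probes (10.1%). Between 24 and 6 hr the single call fell to 0 without background correction, with median centring, spike-in scaling, the scanner software's log ratio, no filter, the mean of probes or no block. Between the flavopiridol doses 0 became 1, Tnfrsf1a, without background correction (2.86% of all genes) and with the scanner software's log ratio (3.64%).

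With the range of the share of all genes called in parentheses, leaving out each array in turn gave 3 to 5 calls with reactivation (36.7% to 45.7%), 3 to 6 with flavopiridol (38.6% to 50.3%), 6 to 7 with JQ1 (40.8% to 46.3%), 0 to 2 and 0 to 1 for the flavopiridol and JQ1 effects by reactivation (2.39% to 24.4% and at least 3.25%), 0 for both effects by cell type (up to 0.00821% and 0.00779%), 4 to 7 between Th1 and Th2 cells (19.9% to 26.7%), 0 to 1 between times (0.138% to 5.09%), 6 to 7 between the drugs (52.1% to 58.7%), 0 to 1 between the flavopiridol doses (0.153% to 2.83%) and 5 to 6 (22.2% to 31.1%) between the JQ1 doses.

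Where the value was called under either setting, signs turned as follows, and the cause was not tested. With flavopiridol, Tnfrsf25 was at -0.48 under median centring and Tnfrsf9 at 0.99 by its dimmer probe. With JQ1, Tnfrsf9 was at 0.096 in Cy3 alone and 0.039 in the authors' table. In the JQ1 effect by reactivation, spike-in scaling gave -1.12 for Tnfrsf1a, -1.01 for Tnfrsf1b, -1.04 for Tnfrsf4, -0.25 for Tnfrsf25, -1.01 for Cd27 and -1.15 for Fas, beside a median of -1.18 over all genes, and the dimmer Tnfrsf9 probe gave 0.82. Between the drugs, Cd27 was at -0.38 under median centring, and Tnfrsf9 at 0.24 by the mean of probes and 1.28 by the dimmer probe. Values called under neither setting changed sign in a further 38 of 1016 cases, and in 57 of 1136 when an array was left out.

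No paired analysis was possible because, with 1 array per condition, there are no replicate numbers to pair by; the fits instead pair conditions matched by cell type, state, treatment or time, and the counts without the block are those without this pairing. Slide as a random block was not run for reactivation, for either effect by cell type or for 24 against 6 hr, where slide is already fixed by the design. Tnfrsf1b, the receptor nearest to background, limits what its values show on the Th2 arrays with 1 µM flavopiridol.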
